A study of Homo sapiens with 3 samples.

Results

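The TGF-beta and BMP pathway genes are 45 genes that encode ligands of the TGF-beta superfamily, the proteins that process or store these ligands, their receptors, the SMAD proteins, inhibitors inside and outside the cell, and target genes. They were chosen by name, as the probes for transcripts that carry one of these gene names on the 3 arrays, and they are 45 of 43317 gene names on the array. All 45 had at least 1 probe, 63 probes in all. The cells were HCT116, a colorectal cancer cell line, transfected with a small interfering RNA (siRNA) against SMARCA4, the ATPase of the SWI/SNF chromatin remodeling complex (SMARCA4-KD1 and SMARCA4-KD2), or with a scrambled negative control (NC). Each condition had 1 array of total RNA, so that no difference between a knockdown and NC has a replicate check. The sample labels name SMARCA4 in their titles and in the transfection protocol but PRMT1 in the treatment field, from which the knockdown number was taken. The arrays measured whole cultures, in which transfection may leave some cells untouched. The sources used here do not say which array received which siRNA.

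SMARCA4 had a processed signal of 14026 in NC, 3960 in SMARCA4-KD1 and 4129 in SMARCA4-KD2. After the scaling of arrays described below, 26.6% and 28.8% of the NC level were left. PRMT1, the gene in the treatment field, was not lower, with log2 differences to NC of 0.27 and 0.37. The processed signal is the intensity of a spot after the scanner software had subtracted background. All differences below are log2 differences to NC after each array was scaled to its 75th percentile, which was 223 for NC, 237 for SMARCA4-KD1 and 228 for SMARCA4-KD2. Both knockdown arrays were on 1 slide and the NC array on another that was scanned separately, so that slide and treatment cannot be told apart in any comparison below. Of 10 epithelial markers, 9 were well above background on all arrays, with summed signals between 456200 and 466200 per array, and VIL1 was not well above background on any. The sums do not show single markers, of which CLDN4 was lower in both knockdowns (-0.67 and -0.68) and CLDN7 higher (0.79 and 0.72). None of 8 fibroblast markers was well above background on all arrays. Of the leukocyte markers with a probe 5 of 7 were, and so were 2 of 6 endothelial markers, at signals from 24.1 to 86.3.

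Ligands of this superfamily bind pairs of type II and type I receptor kinases, and the type I receptor then phosphorylates receptor-regulated SMADs, mainly SMAD2 and SMAD3 after TGF-beta or activin and SMAD1, SMAD5 and SMAD9 after BMP. These join SMAD4 and enter the nucleus, where target genes such as those of the ID family are turned on and where the inhibitory SMADs, SMAD6 and SMAD7, are induced as a feedback. In the colon epithelium TGF-beta restrains growth, and HCT116 cells are known to carry frameshift mutations of TGFBR2 from their mismatch repair defect while SMAD4 is intact. The level of a messenger RNA on these arrays says nothing about such a mutation or about the phosphorylation of SMADs.

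Of the 45 members, 38 were well above background on at least 1 array and are called measured here, and 37 of them on all 3 arrays. TGFB2, BMP2, INHBA, LTBP2, BMPR1B, GREM1 and ID4 were not well above background on any array, with signals between 3.28 and 14.6, and have no difference. No member probe was saturated. Members that lay at least 1.5-fold below NC on each knockdown array were ID2, an inhibitor of basic helix-loop-helix factors, SKIL, a corepressor of SMADs, the inhibitory SMADs SMAD6 and SMAD7, the receptors ACVR1 and ACVR2B, and, as a limit, the matrix protein TGFBI. SKI, the corepressor related to SKIL, was higher. In whole cultures, fewer cells that express a gene and less RNA per cell cannot be told apart.

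Relative to NC, 9 members were at least 1.5-fold lower in SMARCA4-KD1, where 12.3% of all 22619 measured genes were, and 4 (TGFB1, SMAD2, SKI and BAMBI) were at least 1.5-fold higher, where 11.2% of all genes were. In SMARCA4-KD2 8 members were lower, against 9.74% of all genes, and 2 (SMAD2 and SKI) were higher, against 10.1% of all genes. Lower by 1.5-fold or more than NC in each knockdown were 7 of 38 members (18.4%), beside 8.03% of all genes, and higher by as much were 2 of 38 (5.26%), beside 6.35% of all genes. These shares count every gene by its brightest probe, among members and all genes alike. Of the 2 higher genes, SMAD2 had another probe that was lower, which leaves SKI alone. The 7 lower genes were ACVR1, ACVR2B, SMAD6, SMAD7, SKIL, ID2 and TGFBI. The other probe of ACVR1 was lower too but short of 1.5-fold in each knockdown, at -0.57 and -0.37. ACVR1B and NOG passed 1.5-fold in SMARCA4-KD1 alone and TGFBR2 in SMARCA4-KD2 alone. A member passed the filter on dim probes if any of the 3 arrays measured it, and of these 7 genes TGFBI was measured in NC alone. By sign alone 22 members were lower in both knockdowns, where 39.3% of all genes were, 11 were higher in both, where 41.1% were, and 5 had opposite signs. The members had a median log2 difference of -0.29 with SMARCA4-KD1 and of -0.19 with SMARCA4-KD2, and all genes had medians of -0.0038 and 0.021. Both comparisons share the NC array, so that a high or low value there moves both in the same way.

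**Figure D1:**
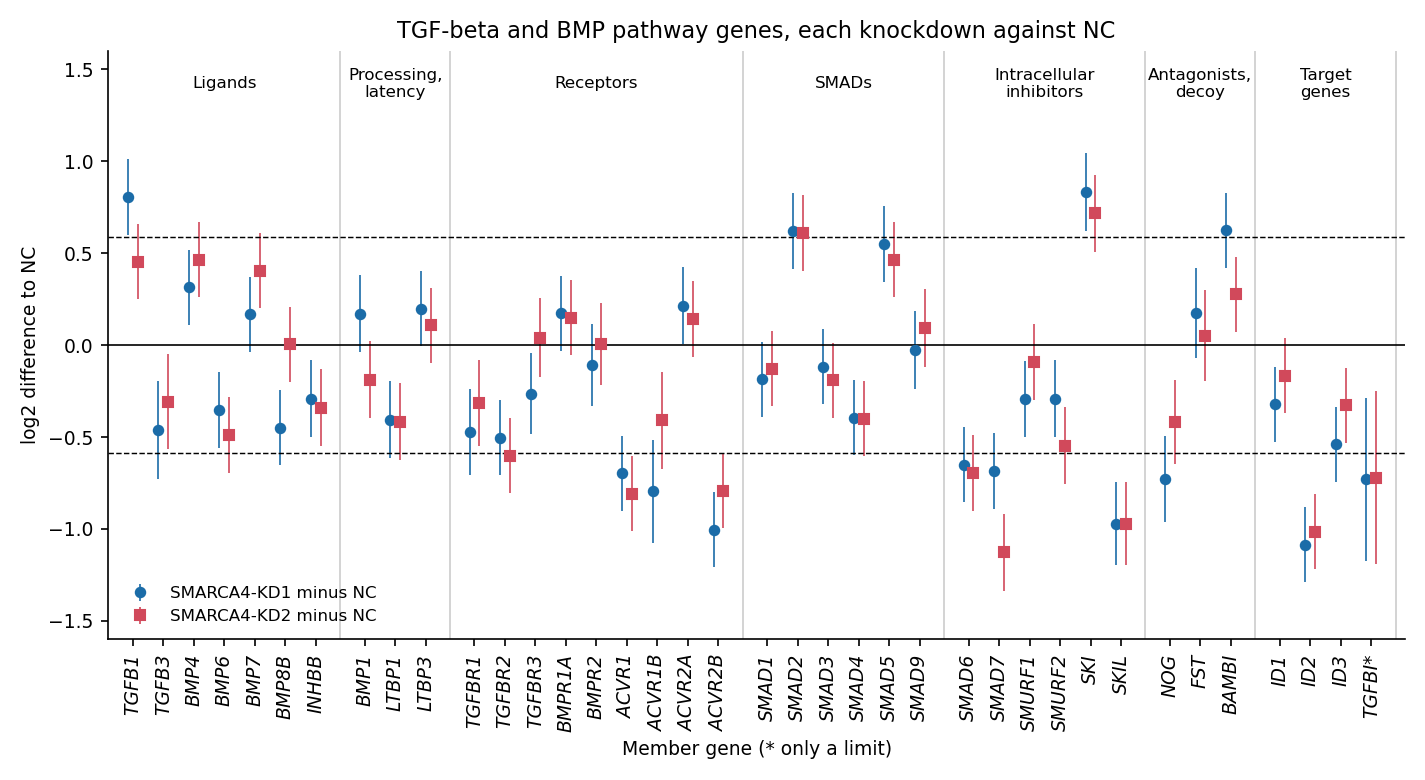
Log2 difference to NC (vertical axis) of the 38 measured members (horizontal axis), grouped by role, in SMARCA4-KD1 (blue circles) and SMARCA4-KD2 (red squares). Vertical lines are the error that the extraction software gives for single spots, not a spread between replicates, dashed lines mark 1.5-fold, and * marks a limit. The 7 genes below the lower line in both knockdowns are receptors, intracellular inhibitors and target genes.

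With both knockdown arrays taken as repeats against the single NC array, limma (intensity trend, 1 residual degree of freedom, Benjamini-Hochberg adjustment over all genes) called no member and 0.0% of all genes at an adjusted p under 0.05. The smallest adjusted p of any gene was 0.0675, and ID2 was among the genes that had it. At an unadjusted p under 0.05, limma had 10 members lower, beside 14.9% of all genes, and 5 higher, beside 16.7% of all genes. The methods' t-test with its p threshold and 1.5-fold took 3 members, SKIL, SMAD2 and TGFBI, beside 1.92% of all genes, and no gene passed it after Benjamini-Hochberg adjustment. The limma count depended on the setting, with 6 of 38 members (15.8%) called after quantile normalization, beside 10.8% of all genes, and 13 of 37 (35.1%) with a filter that asked for all 3 arrays, beside 26.5% of all genes. In the t-test and in limma, TGFBI, dim in both knockdowns, stood at the lowest measured value of each knockdown array. Its p therefore measures no spread of TGFBI and is not read. The SE of limma given below holds no spread of NC, which has 1 array. It is also drawn toward the spread of all genes and is not that of the gene alone. SKIL, with a gap of 0.00036 between the knockdowns, had an SE of 0.16. Between the knockdowns themselves, 0 of 38 members were 1.5-fold apart, beside 6.59% of all genes, and the median size of the gap was 0.122 for the members and 0.134 for all genes. The largest gap was that of BMP8B, -0.45 (SMARCA4-KD1 minus SMARCA4-KD2), followed by that of SMAD7, 0.44.

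**Figure D2:**
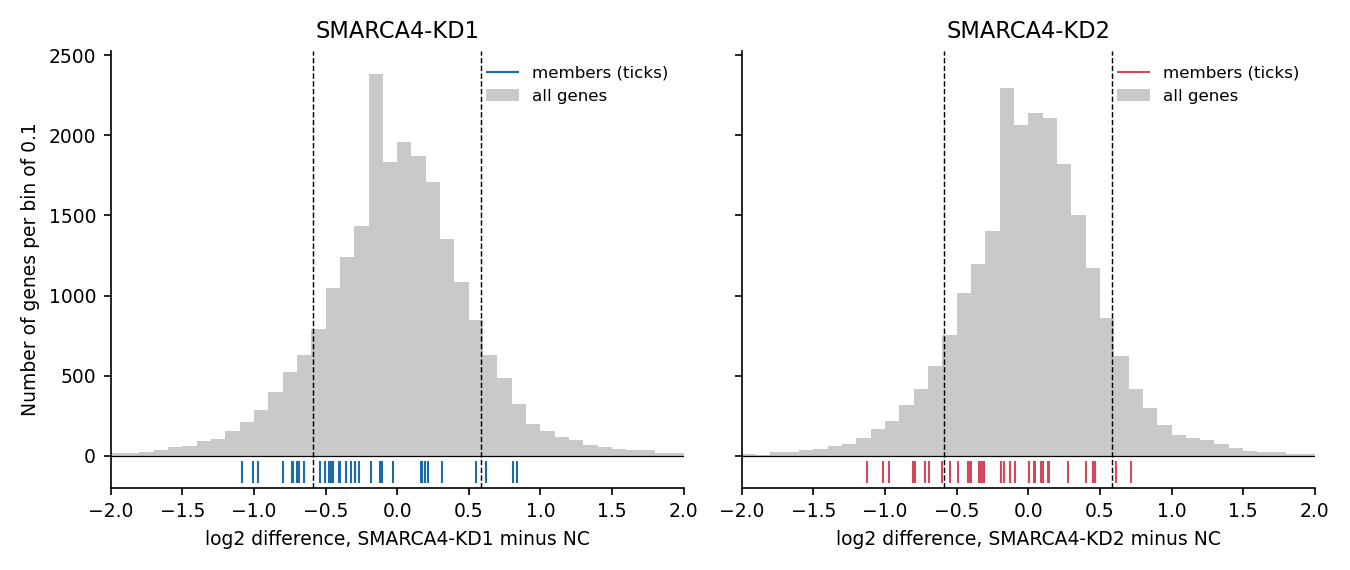
Number of genes per bin of 0.1 (vertical axis) by log2 difference to NC (horizontal axis) for all 22619 measured genes (grey), with the 38 members as ticks below, in SMARCA4-KD1 (left) and SMARCA4-KD2 (right). Dashed lines mark 1.5-fold, and 179 and 111 genes lie outside the plotted range. The ticks lie more often to the left of 0 than to the right, with medians of -0.29 and -0.19.

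Among the 10 ligands, 7 were measured and none was 1.5-fold lower or higher in both knockdowns. TGFB1, the founding ligand of the family, had signals of 330 in NC against 611 in SMARCA4-KD1 and 461 in the SMARCA4-KD2 cells. Both knockdown arrays were above NC, with log2 differences of 0.81 and 0.45, of which that in SMARCA4-KD1 alone was past 1.5-fold (limma adjusted p = 0.148). TGFB3, a ligand with the same receptors, had differences of -0.46 and -0.31. Of the bone morphogenetic proteins, BMP4 had differences of 0.31 and 0.46 and BMP6 of -0.35 and -0.49. The 3 probes of BMP7 did not share a sign, with 0.17 and 0.40 for the brightest probe, 0.25 and 0.17 for another and -0.08 and -0.26 for the remaining one. BMP8B had -0.45 and 0.0037 with its brighter probe and 0.11 and -0.02 with the other. It is nearly identical in sequence to BMP8A, so that its probes may not separate these genes. The BMP genes thus lay on both sides of NC. INHBB, a subunit of activins, had -0.29 and -0.34.

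Of the 4 genes for ligand processing and latency, 3 were measured. BMP1, a protease that processes procollagen and the BMP antagonist chordin, had 0.17 and -0.19. LTBP1 and LTBP3, which tether latent TGF-beta in the matrix, had -0.41 and -0.42 for the former and 0.20 and 0.11 for the latter. None of them was 1.5-fold from NC in either knockdown.

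Of the 10 receptor genes 9 were measured, of which 2 were past 1.5-fold below NC in each knockdown, beside 8.03% of all genes. None was above it by as much, beside 6.35% of all genes. ACVR2B, a type II receptor for activins and related ligands, had signals of 666 in NC against 353 in SMARCA4-KD1 and 393 in the SMARCA4-KD2 cells (probe at chr3:38534307-38534366, plus strand, hg19). Both knockdown arrays lay below NC, 2.01-fold and 1.73-fold, with a mean log2 difference of -0.90 ± 0.15 (SE, limma, adjusted p = 0.0751). ACVR1, also called ALK2, is a type I receptor that signals through the BMP SMADs. Its brighter probe (chr2:158593434-158593493, minus strand, hg19) had signals of 1140.1 in NC against 747 in SMARCA4-KD1 and 666 in the SMARCA4-KD2 cells. Both knockdowns were lower than NC, by 1.62-fold and 1.75-fold, with a mean of -0.75 ± 0.11 (SE, limma, adjusted p = 0.0701). The other ACVR1 probe was lower in both as well but did not reach 1.5-fold in either, at -0.57 and -0.37.

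TGFBR2, the type II receptor for TGF-beta, had signals of 2747 in NC against 2057 in SMARCA4-KD1 and 1851 in the SMARCA4-KD2 cells. Both knockdown arrays were below NC, with differences of -0.50 and -0.60, the latter past 1.5-fold (limma adjusted p = 0.0761), and the other probe had -0.31 and -0.24. TGFBR1, its type I partner, had -0.47 and -0.32, and the coreceptor TGFBR3 had -0.26 and 0.04. ACVR1B, a type I receptor for activins, had a low signal of 53.0 in NC against 32.4 and 40.8, with differences of -0.80 and -0.41. Of the receptors for BMP ligands, BMPR1A and BMPR2 were past 1.5-fold in neither knockdown. The 4 probes of the type I receptor BMPR1A ranged from 0.15 to 0.57, all above NC, and 2 of them lie at the same position. The type II receptors BMPR2 and ACVR2A had -0.11 and 0.0054 for BMPR2 and 0.21 and 0.14 for ACVR2A.

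**Figure D3:**
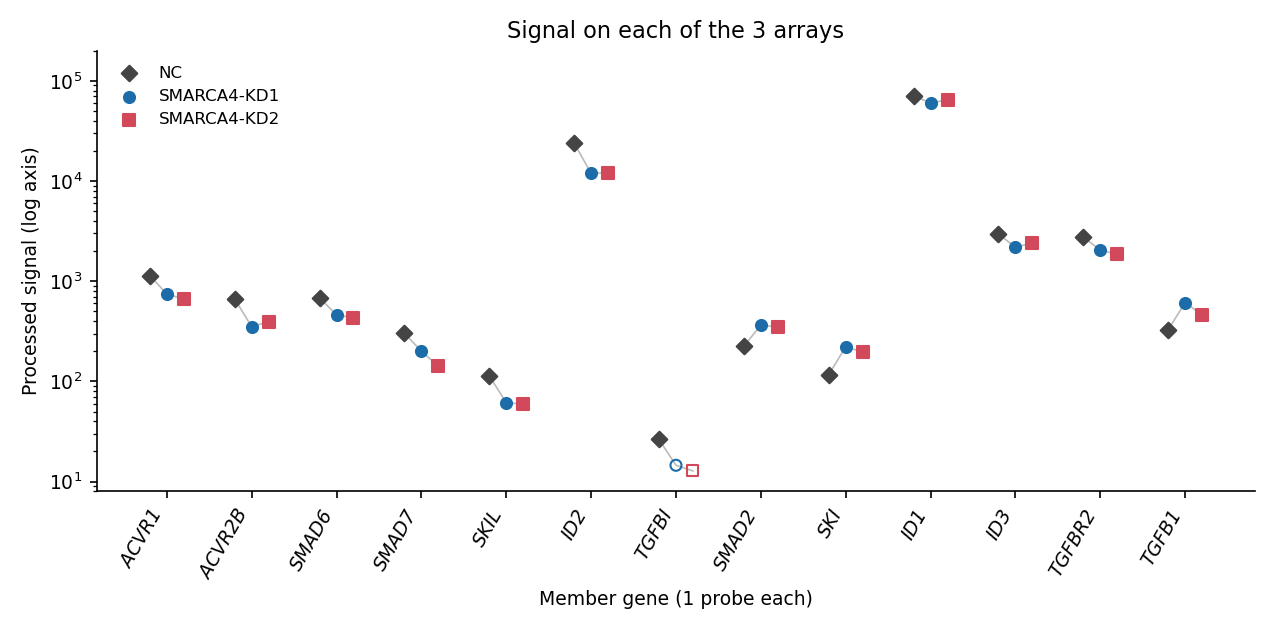
Processed signal (vertical axis, log scale) of 1 probe each for 13 members (horizontal axis) on the arrays of NC (grey diamonds), SMARCA4-KD1 (blue circles) and SMARCA4-KD2 (red squares), before scaling between arrays. Open symbols are not well above background. ACVR1, ACVR2B, TGFBR2, SMAD6, SMAD7, SKIL, ID1, ID2, ID3 and TGFBI have the NC array on top, and SMAD2, SKI and TGFB1 have it at the bottom, while heights are not comparable between genes.

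All 6 genes for receptor-regulated and common SMADs were measured, and none was 1.5-fold lower in both knockdowns. SMAD3, which carries TGF-beta and activin signals, had signals of 7284 in NC, 7130 in SMARCA4-KD1 and 6527 in SMARCA4-KD2, so that all 3 arrays were close, with differences of -0.12 and -0.19. SMAD4, the partner of all receptor-regulated SMADs, had -0.40 and -0.40 with its brighter probe and 0.0091 and -0.0060 with the other. SMAD1, SMAD5 and SMAD9, which carry BMP signals, had -0.19 and -0.13, 0.55 and 0.46, and -0.03 and 0.09, in this order. The other SMAD9 probe had -0.59 and -0.48.

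The probes of SMAD2, which pairs with SMAD3 downstream of TGF-beta, opposed each other. Its brightest probe (chr18:45360188-45360247, minus strand, hg19) had signals of 224 in NC against 366 in SMARCA4-KD1 and 350 in the SMARCA4-KD2 cells, both knockdowns being above NC by 1.54-fold and 1.53-fold (limma adjusted p = 0.0839). The other probe well above background (chr18:45348228-45348287, minus strand, hg19) had 276 in NC against 209 and 205, with differences of -0.48 and -0.46, so that here NC was the highest array. The mean over both probes was 0.07. The array files give the former probe a RefSeq transcript and the latter an Ensembl transcript of the gene, and in which exon or untranslated region they lie was not determined here. Hence no direction is given for SMAD2 as a gene.

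**Figure D4:**
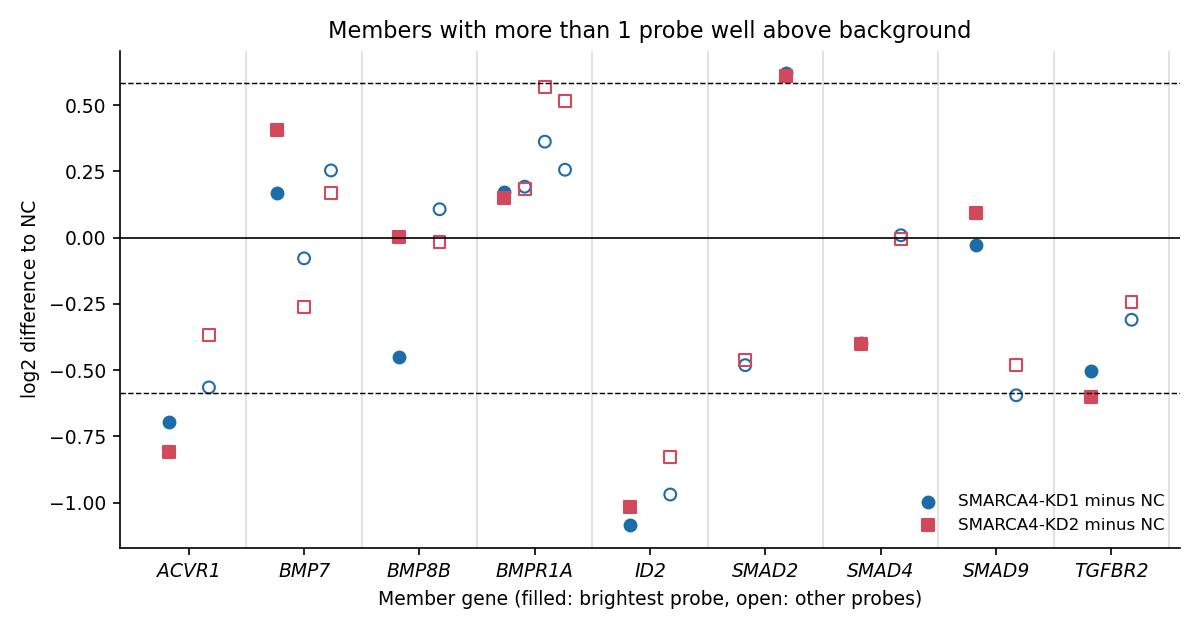
Log2 difference to NC (vertical axis) of every probe well above background on all arrays, for the 9 members with more than 1 such probe (horizontal axis), in SMARCA4-KD1 (blue circles) and SMARCA4-KD2 (red squares). Filled symbols are the brightest probe, which stands for the gene, open symbols are other probes, and dashed lines mark 1.5-fold. Both probes of ID2 lie near -1, while those of SMAD2 lie on opposite sides of 0.

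Of the 6 intracellular inhibitors, all measured, 3 lay at least 1.5-fold below NC on each knockdown array, beside 8.03% of all genes. By as much, 1 lay above it, beside 6.35% of all genes. SMAD6, which mainly restrains BMP signaling, had signals of 684 in NC against 462 in SMARCA4-KD1 and 432 in the SMARCA4-KD2 cells (chr15:67074263-67074322, plus strand, hg19). Both knockdown arrays were close to each other and below NC, 1.57-fold and 1.62-fold, with a mean of -0.67 ± 0.11 (SE, limma, adjusted p = 0.0729). SMAD7, which blocks type I receptors of both branches, had signals of 304 in NC, 201 in SMARCA4-KD1 and 142 in SMARCA4-KD2 (chr18:46446782-46446841, minus strand, hg19). NC was again the highest array, but the knockdowns differed, 1.61-fold and 2.19-fold lower, with a mean of -0.91 ± 0.25 (SE, limma, adjusted p = 0.122). With normexp background correction, SMAD7 was no longer past 1.5-fold in both knockdowns, at a mean of -0.67.

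SKIL, also called SnoN, represses SMAD target genes and is degraded when TGF-beta signals. Its signals were low, 114 in NC, 61.5 in SMARCA4-KD1 and 59.2 in SMARCA4-KD2 (chr3:170110094-170110153, plus strand, hg19). The knockdown arrays were nearly equal, each 1.96-fold below NC, with a mean of -0.97 ± 0.16 (SE, limma, adjusted p = 0.0767). SKI, its relative with the same partners, had 117 in NC, 221 in SMARCA4-KD1 and 197 in SMARCA4-KD2 (chr1:2239373-2239432, plus strand, hg19). Here NC was the lowest array, and the knockdowns were 1.78-fold and 1.64-fold higher, with a mean of 0.77 ± 0.15 (SE, limma, adjusted p = 0.0835), a value of 0.58 with normexp, where SKI was not past 1.5-fold in both. The ubiquitin ligases SMURF1 and SMURF2, which act on receptors and SMADs, had -0.29 and -0.09 for SMURF1 and -0.29 and -0.55 for SMURF2.

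Of the 4 antagonists and decoys, 3 were measured and none was 1.5-fold from NC in both knockdowns. NOG, a secreted antagonist of BMPs, had signals of 87.9 in NC against 56.2 in SMARCA4-KD1 and 67.2 in the SMARCA4-KD2 cells, with differences of -0.73 and -0.42. BAMBI, a pseudoreceptor without a kinase domain, had 6239 in NC against 10197 and 7732, with differences of 0.62 and 0.28. For both genes the NC array was at an end of the order, and the difference was past 1.5-fold in SMARCA4-KD1 alone. FST, which binds activins, had 0.17 and 0.05.

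Of the 5 target genes 4 were measured, all with values below NC on each knockdown array, beside 39.3% of all genes. For 2 of them, of which TGFBI is a limit, the gap was 1.5-fold or more on both, beside 8.03% of all genes. ID2 had signals of 23924 in NC, 11968 in SMARCA4-KD1 and 12108 in SMARCA4-KD2 by its brighter probe (chr2:8822642-8823030, plus strand, hg19). The knockdown arrays were nearly equal and 2.12-fold and 2.02-fold below NC, with a mean of -1.05 ± 0.08 (SE, limma, adjusted p = 0.0675). The other ID2 probe (chr2:8824282-8824341, plus strand, hg19) had 10693 in NC against 5797 and 6158, so that NC was the highest array again, with differences of -0.97 and -0.83. By its brighter probe and after scaling, ID2 was the only member at least 2-fold lower in both knockdowns, in SMARCA4-KD2 only just, at 2.02-fold. The SE of that probe holds no spread of NC, and the extraction error of its difference was 0.204 in each knockdown.

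The other ID genes, which share the helix-loop-helix domain of ID2 and are known targets of BMP signaling, were closer to NC. ID1 had signals of 70904 in NC against 60249 in SMARCA4-KD1 and 64599 in the SMARCA4-KD2 cells, with differences of -0.32 and -0.17. ID3 had 2978 in NC against 2176 and 2426, with differences of -0.54 and -0.33. For both genes NC was the highest array, and neither was past 1.5-fold in a knockdown (limma adjusted p = 0.235 for ID1 and 0.134 for ID3). TGFBI, a matrix protein named for its induction by TGF-beta, had 26.4 in NC, 14.6 in SMARCA4-KD1 and 12.8 in SMARCA4-KD2 (chr5:135399343-135399402, plus strand, hg19). It was well above background in NC alone, so that its fold is a limit. TGFBI was at least 1.66-fold and at least 1.65-fold lower against the lowest signals well above background, 16.9 and 16.4. These lowest signals entered limma for both knockdowns, so that no p is given.

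The promoters of SMAD6, SMAD7, SKIL and ID2 are shown because these 4 genes are the intracellular inhibitors and targets that were lower in both knockdowns and measured on all 3 arrays, which TGFBI was not. Each is the 250 bases before the annotated start on the gene's strand, read 5′ to 3′ from RefSeq for GRCh38.p14, at chr15:66701986-66702235 (plus) for SMAD6, chr18:48950966-48951215 (minus) for the first of 3 SMAD7 entries, chr3:170357465-170357714 (plus) for SKIL and chr2:8681806-8682055 (plus) for ID2. Capitals mark matches to letters known from SMAD binding sites, searched on both strands, namely the palindrome GTCTAGAC, the short box CAGAC, which reads as GTCTG on the other strand, and the GC-rich element GGCGCC of BMP targets. Capitals overlap nowhere in these promoters.
SMAD6: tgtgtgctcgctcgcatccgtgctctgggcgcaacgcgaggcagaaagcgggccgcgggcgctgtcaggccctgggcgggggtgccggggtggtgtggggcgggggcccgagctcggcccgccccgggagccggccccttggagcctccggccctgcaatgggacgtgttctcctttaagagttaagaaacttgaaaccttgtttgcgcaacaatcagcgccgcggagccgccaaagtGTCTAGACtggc
SMAD7: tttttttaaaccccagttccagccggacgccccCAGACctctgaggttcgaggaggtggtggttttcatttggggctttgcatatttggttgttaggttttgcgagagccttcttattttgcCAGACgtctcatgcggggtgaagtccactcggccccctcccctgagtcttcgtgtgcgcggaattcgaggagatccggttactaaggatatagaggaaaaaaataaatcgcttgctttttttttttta
SKIL: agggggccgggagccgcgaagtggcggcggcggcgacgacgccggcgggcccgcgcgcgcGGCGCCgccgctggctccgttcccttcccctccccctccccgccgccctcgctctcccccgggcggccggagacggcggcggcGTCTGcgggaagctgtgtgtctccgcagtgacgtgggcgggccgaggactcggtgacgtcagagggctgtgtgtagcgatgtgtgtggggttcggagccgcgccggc
ID2: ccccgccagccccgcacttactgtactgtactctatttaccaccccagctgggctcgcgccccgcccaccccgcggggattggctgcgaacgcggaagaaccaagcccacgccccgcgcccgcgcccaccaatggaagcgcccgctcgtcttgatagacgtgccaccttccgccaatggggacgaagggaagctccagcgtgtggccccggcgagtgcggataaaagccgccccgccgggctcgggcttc

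SMAD6 held 1 palindrome, SMAD7 2 CAGAC boxes, and SKIL 1 such box and 1 GGCGCC, while ID2 held none of the 3. The palindrome was in 64 of 35116 promoter entries of the same length (0.182%), the CAGAC box in 38.0% and GGCGCC in 16.4% of them. A promoter entry was found for 40 members, with 71 entries in all, of which 1 (1.41%) held the palindrome, 27 (38.0%) the CAGAC box and 17 (23.9%) GGCGCC. The share of CAGAC boxes thus equalled that of all promoters. A match describes letters and is not a binding site, and no binding was measured in these arrays.

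Other genes of the pathway were read from a list of 103 genes that holds no member, of which 102 had a probe and 73 were measured. Lower by 1.5-fold or more in each knockdown were 7 of them (9.59%) and higher were 3 (4.11%), beside 8.03% and 6.35% of all genes, and the medians were 0.05 and 0.08. Among receptors, ACVRL1 (ALK1), an endothelial type I receptor, had -1.39 and -0.79, and ACVR1C (ALK7), the receptor of NODAL and activin B, had -0.96 and -0.93. Among genes that hold or release latent TGF-beta, LRRC32 had -0.85 and -0.67, THBS1 had -0.89 and -0.75 and the integrin subunit ITGB8 had -1.51 and -0.91. For each of these genes NC was the highest array. Signals of ITGB8, ACVRL1 and LRRC32 were low, at 62.7, 78.4 and 69.3 in NC. ITGB8 and ACVRL1 were also over 1.5-fold apart between the knockdowns, with gaps of -0.60 and -0.61 (SMARCA4-KD1 minus SMARCA4-KD2). Of the 22 measured response genes, 7 were lower by sign in both knockdowns and 11 higher, beside 39.3% and 41.1% of all genes. Their medians were 0.20 and 0.13. Past 1.5-fold in both, 2 were lower and 2 higher, beside 8.03% and 6.35% of all genes. The lower ones included VIM, the intermediate filament of mesenchymal cells, with -1.47 and -1.57. Higher in both knockdowns were GDF11, an activin-like ligand, with 0.95 and 0.75, and 2 response genes. These were the matrix protein CYR61 with 1.56 and 1.04 and the cyclin-dependent kinase inhibitor CDKN1A with 1.06 and 0.73. ACVRL1, LRRC32 and ITGB8 were not past 1.5-fold in both knockdowns with normexp, and THBS1 was not, at -0.52 and -0.23, when its probes were averaged. No gene of this list passed limma at an adjusted p under 0.05 in the setting of the report, while 11 lower and 14 higher had an unadjusted p under 0.05.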

How the data were processed

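Total RNA of both SMARCA4 knockdowns and of NC (1 array each) had been labeled with Cy3 and hybridised to the v3 array of Agilent's SurePrint G3 series for human gene expression. Per the file headers and the submitters' processing notes, the authors extracted each spot's intensity with Agilent Feature Extraction 10.7.1.1, with background subtraction and no normalization between arrays. The authors' further analysis used GeneSpring. A deposited series-level table of the same intensity values, equal within 0.1% for all but 1 of 57901 probes with 1 spot, served as an alternative. The deposited files also hold a score column (the detrending factor) and other flags, used as given or not at all.

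Control and outlier spots were left out, spots of a probe were averaged, and log2 of the processed signal was taken relative to each array's 75th percentile, computed over every probe that is not a control. Between 26618 and 27535 of 58201 probes per array were well above background (45.7% to 47.3%). Lower values were raised, where below it, to the smallest measured value of their array (signals of 16.4 to 17.7). Probes well above background on any array were kept, and the brightest stood for each of 22619 genes, of which 5173 had more than 1 probe. The extraction error of a member's difference ranged from 0.204 to 0.47 (log2). Of the members' 63 probes, 57 carried an accession found in RefSeq, all with the same symbol. Probe positions are those of the array design (hg19).

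A gene was called at 1.5-fold in both knockdowns, with no test. limma 3.58.1 (R 4.3.3) with an intensity trend compared both knockdown arrays with NC, on the assumption that NC varies as the knockdowns do. Its p-values and SEs thus rest only on spread between both knockdown arrays, which may in part be technical. For each gene limma draws this spread toward that of all genes at a similar intensity. An SE is therefore not the spread of that gene alone. The methods name a p under 0.01. The steps were tested on simulated data. Alternatives were quantile normalization, the percentile over detected probes, normexp (offset 50), no filter or a stricter filter on all arrays, values without a floor, averaged probes, the series-level table, 2-fold, no trend, an unadjusted p and the methods' t-test. All 45 members are named, and of the other list the genes past 1.5-fold in both knockdowns and measured on all arrays, except that 1 gene and the siRNA sequences are not reported here. The members and lists were chosen with earlier results of these data known. Promoters were searched with Python 3.11.15, pandas 2.3.3 and numpy 2.4.6, and figures were drawn with matplotlib 3.10.9.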

Additional observations from a re-analysis of the deposited data

How the results depend on the processing

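Each condition had 1 array, so no replicate could be left out, and no paired analysis was possible because a group had 1 sample. ACVR1, ACVR2B, SMAD6, SKIL and ID2 were at least 1.5-fold lower in both knockdowns in all 8 alternatives at that threshold, SMAD7 in 7 of 8, and TGFBI in 6 of the 7 that could give it, both failing with normexp (means of -0.67 and -0.32). SKI was higher in 7 of 8, and SMAD2 in 5 of 8, failing with the percentile over detected probes, with normexp and with averaged probes. No mean difference of a member called at 1.5-fold changed its sign. The members' median stayed below 0, between -0.35 and -0.19 in SMARCA4-KD1 and between -0.26 and -0.14 in SMARCA4-KD2, where without a filter the median of all genes was itself -0.15 and -0.14.

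With the percentile over detected probes, 2 members were higher in SMARCA4-KD1, 1 was in SMARCA4-KD2 and 1 was in both. With normexp, 5 were lower and 2 higher in SMARCA4-KD1, 0 were higher in SMARCA4-KD2 and 0 in both, and 3 other genes of the pathway were lower in both. Averaging over probes left 1 higher in SMARCA4-KD2 and 1 in both. Without a floor, 5 other genes of the pathway were higher. At 2-fold, 2 members were lower and 0 higher in SMARCA4-KD1, 2 lower and 0 higher in SMARCA4-KD2, 1 lower and 0 higher in both, and of the other genes 1 was lower and 1 higher. These counts past a fold stand without the share of all genes in the same setting. They are therefore not read as more or fewer than among all genes. The number of members that limma called was most open to the setting, 0 in the report, with averaged probes and without a trend, 5 with the percentile over detected probes (beside 7.06% of all genes), 6 after quantile normalization (10.8%), 10 with normexp (16.4%), 10 with the series-level table (16.5%), 13 with a filter on all arrays (26.5%) and 24 without a filter (71.4%), and 15 at an unadjusted p and 3 by the methods' t-test. Without a filter, genes dim on all arrays stood at the lowest measured value of each array. Members called there included TGFB2, BMP2, INHBA, LTBP2, BMPR1B, GREM1 and ID4, which have no difference here. The count without a filter is therefore not read as a result. What caused the other differences between settings was not tested.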
